A study of Mus musculus with 12 samples.

Results

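The genes described here encode interferon-inducible GTPases of 2 families, the guanylate-binding proteins Gbp2, Gbp3, Gbp4, Gbp5, Gbp6, Gbp7, Gbp8 and Gbp9 and the immunity-related GTPases Irgm1 and Igtp. The 10 members were chosen by name and matched by Ensembl identifier among the 56941 genes counted, and all 10 were found. They were chosen with the lower level of interferon genes in unpolarized miR-210 knockout cells already known, so the values of that comparison are a description and nothing is drawn from calls in it.

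Guanylate-binding proteins (GBPs) and immunity-related GTPases (IRGs) are large GTPases that cells make in response to interferon, above all interferon gamma. They gather on the membranes of vacuoles that hold bacteria or parasites and on bacteria in the cytosol, break these membranes open and expose microbial products to inflammasomes. Members of the Irgm group, to which Irgm1 and Igtp (Irgm3) belong, sit on the cell's own membranes and hold the other IRG proteins inactive there. Promoters of both families can hold gamma-activated sites (GAS) and interferon-stimulated response elements (ISRE), the latter bound by interferon regulatory factors, while IL-4 signals through STAT6.

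The study asked how loss of the microRNA miR-210 alters resting and IL-4-polarized macrophages. Monocytes were purified by negative selection from the bone marrow of C57BL/6J mice and grown for 7 days in medium conditioned by L929 cells, a source of M-CSF. Cells then given 20 ng/mL IL-4 for another 72 hours, labelled M2, were compared with cells without IL-4, labelled M0. The paper states that its control wells were kept in the same conditions but without IL-4. Each genotype was sequenced in both states with 3 libraries per group, 12 in all. The deletion came from a floxed miR-210 line crossed to Gata-1 Cre mice, and WT and KO mice were both bred from heterozygotes. Since the batch label changes with the group, a batch effect and a group effect cannot be told apart. Nothing in the labels says that the 3 libraries of a group came from separate mice, so a p-value measures the spread between these libraries. Library numbers 1 to 3 are those of the table columns and are not tied to named samples.

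Library totals lay between 7930525 and 10167695 counts. Mir210 had 1, 3 and 5 counts in WT M0, 1, 2 and 1 in WT M2 and 0 in all 6 KO libraries, where a count of 0 allows up to 3. Macrophage markers summed to between 8658 and 9868 CPM (counts scaled to the library total, adjusted by edgeR's TMM factors) in the M0 libraries. In the M2 libraries they summed to less, between 7298 and 8024 CPM. Of 5 natural killer cell markers 4 were at 0 in all 12 libraries, with a sum of at most 0.250 CPM, and the T cell genes Cd3e and Cd3g were at 0 too. Dendritic cell markers summed to between 0.413 and 1.11 CPM in M0 and between 10.3 and 17.9 CPM in M2, nearly all of it from Zbtb46. Fibroblast markers summed to between 0.890 and 1.24 CPM in WT M0 and between 1.78 and 2.29 CPM in KO M0. T cell markers summed to between 1.67 and 5.72 CPM, B cell markers to between 5.94 and 10.23 CPM, and neutrophil markers to at most 4.95 CPM in any library. Erythroid markers were at 0 in all 6 KO libraries and reached at most 3.43 CPM in WT M0 and 4.43 CPM in WT M2. The part of these cells in the results was not tested, and in bulk RNA fewer expressing cells and less RNA per cell cannot be told apart.

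The members lie on 3 chromosomes of the mouse genome (GRCm39). Gbp5, Gbp7, Gbp3 and Gbp2 follow each other on the plus strand of chromosome 3 between 142199739 and 142343779. Gbp8, Gbp9, Gbp4 and Gbp6 lie on the minus strand of chromosome 5 between 105162016 and 105443751. On chromosome 11, Irgm1 occupies 48752795 to 48763164 on the minus strand and Igtp 58089840 to 58098417 on the plus strand. All 10 are protein-coding. Gbp8, Gbp9 and Gbp4 share 107 bases of exon on the same strand, and Igtp shares 162 with Irgm2. Gbp6 shares 1726 with Gm43302 and Gbp7 637 with Gm43802, and both of these partners had 0 counts over the 12 libraries. A read in such a stretch cannot be given to a single gene. Of the 50-base stretches of the longest Gbp6 transcript 84.8% also occur in another gene, mainly Gm43302, against 18.2% for Gbp8, 12.4% for Gbp7 and 10.3% for Gbp4. Counts of Gbp6 in particular, and so its level per kb of exon, depend on how reads that match several genes were handled. The share was 9.70% for Igtp, 7.71% for Gbp9, 4.80% for Gbp5, 3.12% for Gbp3, 2.03% for Gbp2 and 0 for Irgm1.

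Promoter sequences are shown for 4 members whose transcripts differed in their change from M0 to M2. Irgm1, Igtp and Gbp5 fell in both genotypes, and Gbp2 did not fall in either. They run from 250 bases before to 50 bases after the annotated start site and were taken from RefSeq on GRCm38.p6, an earlier build than that of the counts. Capitals mark matches to the core of the interferon-stimulated response element, which is GAAA, any 2 bases and GAAA, and to the gamma-activated site, TTCNNNGAA, both read on either strand.
Irgm1, chr11:48871371-48871670, minus strand: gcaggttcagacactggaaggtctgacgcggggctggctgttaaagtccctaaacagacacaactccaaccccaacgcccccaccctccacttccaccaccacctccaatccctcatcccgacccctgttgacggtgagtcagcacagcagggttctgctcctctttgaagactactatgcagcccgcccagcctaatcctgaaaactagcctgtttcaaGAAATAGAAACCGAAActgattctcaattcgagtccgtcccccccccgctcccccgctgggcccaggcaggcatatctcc
Igtp, chr11:58199306-58199605, plus strand: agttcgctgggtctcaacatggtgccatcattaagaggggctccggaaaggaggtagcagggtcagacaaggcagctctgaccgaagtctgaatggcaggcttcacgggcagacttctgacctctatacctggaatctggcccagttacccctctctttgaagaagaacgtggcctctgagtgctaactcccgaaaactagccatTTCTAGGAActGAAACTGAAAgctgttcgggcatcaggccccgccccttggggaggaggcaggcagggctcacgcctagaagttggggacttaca
Gbp5, chr3:142496684-142496983, plus strand: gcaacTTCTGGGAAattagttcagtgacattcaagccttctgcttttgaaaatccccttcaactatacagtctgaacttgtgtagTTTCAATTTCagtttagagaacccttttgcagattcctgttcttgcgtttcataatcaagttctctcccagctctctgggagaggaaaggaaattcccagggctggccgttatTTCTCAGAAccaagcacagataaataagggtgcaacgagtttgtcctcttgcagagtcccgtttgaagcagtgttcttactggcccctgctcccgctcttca
Gbp2, chr3:142620413-142620712, plus strand: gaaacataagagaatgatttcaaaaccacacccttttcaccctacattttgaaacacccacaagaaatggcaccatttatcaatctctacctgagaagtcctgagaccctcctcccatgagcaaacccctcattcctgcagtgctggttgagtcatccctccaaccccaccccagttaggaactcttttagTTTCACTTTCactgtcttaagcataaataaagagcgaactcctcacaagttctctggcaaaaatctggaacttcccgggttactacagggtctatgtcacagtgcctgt

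RefSeq promoters were found for 6 members, Irgm1, Igtp, Gbp2, Gbp3, Gbp5 and Gbp7, with a second start site for Gbp3. All 6 held the ISRE core in the promoter of at least 1 start site, against 3.44% of 32851 mouse promoters of 300 bases. The match lay at -30 to -15 in Irgm1 as 2 overlapping copies, at -34 to -25 in Igtp, at -53 to -44 in Gbp7, at -59 to -50 in Gbp2 and at -165 to -156 in Gbp5. Gbp3 held 2 overlapping copies from -45 to -30 at its first start site. The GAS letters, present in 8.30% of all promoters, were found 2 times in Gbp5, 2 times in Gbp7 and 1 time in Igtp. A wider spacing that STAT6 prefers, TTC, any 4 bases and GAA, was in 6.95% of all promoters and, among these members, only upstream of the second Gbp3 start site. Matches of letters are a description and were not tested for binding.

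**Figure D1:**
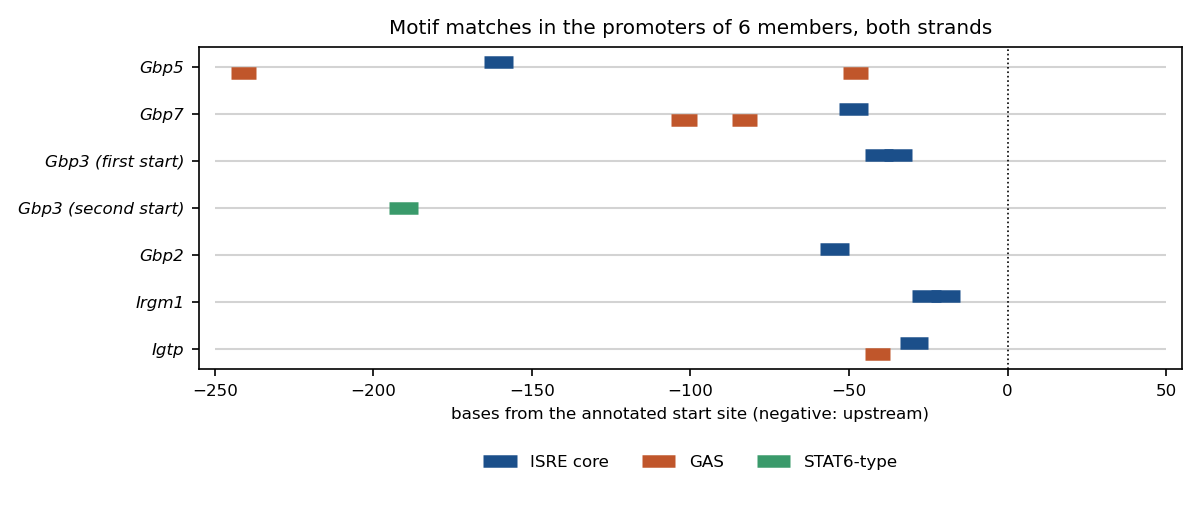
Positions of motif matches in the RefSeq promoters of 6 members, with bases from the annotated start site on the x axis and a promoter on each line; blue bars are ISRE core, orange GAS and green STAT6-type letters. The ISRE core lies within 60 bases upstream of the start site in Gbp7, Gbp3, Gbp2, Irgm1 and Igtp and farther upstream, at -165 to -156, in Gbp5.

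Levels differed widely among the members. Per kb of exon, Irgm1, which limits the growth of intracellular bacteria in macrophages, was the most abundant in each of the 4 groups, at 63.5 ± 10.7 CPM per kb in WT M0 (SD, n = 3) and 24.1 ± 1.05 in WT M2. It held 50.8% of the length-scaled level of the 10 members in WT M0, 54.6% in KO M0, 42.2% in WT M2 and 44.1% in KO M2. Igtp followed in WT M0 at 27.9 ± 6.19 CPM per kb, then Gbp2 at 11.9 ± 4.12 and Gbp7 at 8.46 ± 0.750. Gbp9 at 5.81 ± 1.37 and Gbp3 at 4.25 ± 0.910 came next, then Gbp5 at 1.87 ± 0.287 and Gbp6 at 1.13 ± 0.375. Gbp8 and Gbp4 were lowest, at 0.442 ± 0.0915 and 0.250 ± 0.0914 CPM per kb. In WT M0 the libraries of neighbours in this order overlapped for Gbp2 and Gbp7 and for Gbp9 and Gbp3, and did not overlap for the other neighbours.

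The order shifted with IL-4. In WT M2, Gbp2 stood second at 13.3 ± 4.61 CPM per kb, with libraries that overlapped those of Igtp at 10.9 ± 1.37. Gbp9 stood below Gbp3 in both M2 groups, at 0.951 ± 0.289 against 3.11 ± 0.580 CPM per kb in WT M2, without overlap. With the longest transcript as length in place of all exons, Gbp7 and Gbp9 changed places in WT M0 and Gbp2 and Igtp in WT M2.

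**Figure D2:**
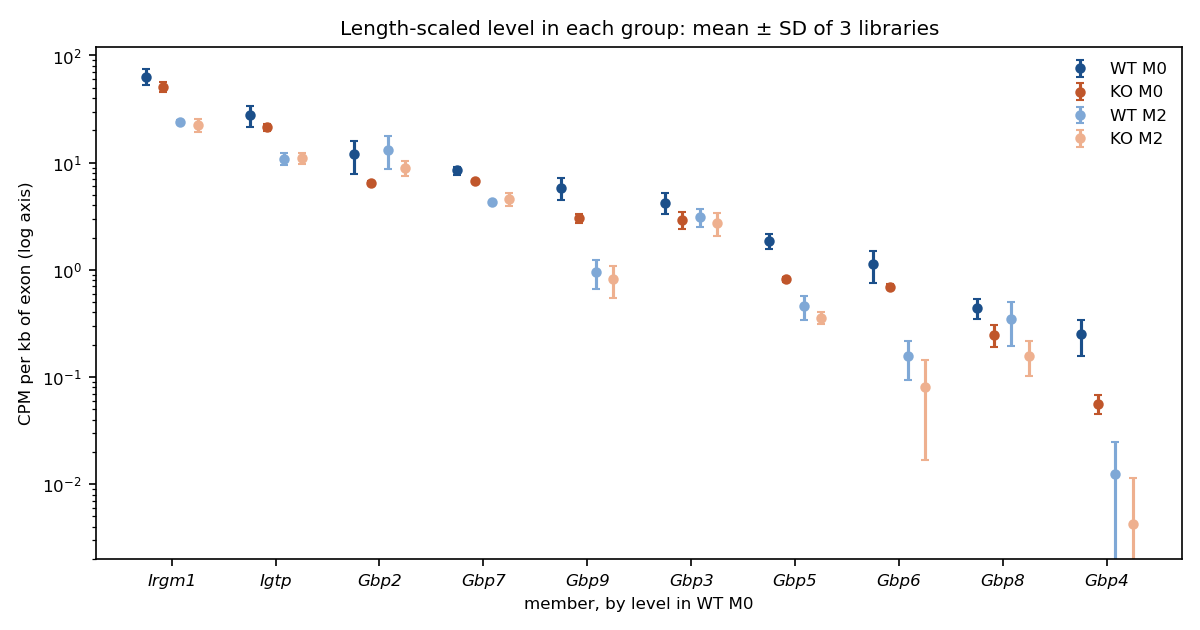
Level of the 10 members per kb of exon (CPM per kb, log axis), in order of their level in WT M0; points are means and bars SD over 3 libraries of WT M0, KO M0, WT M2 and KO M2. Irgm1 is highest in each group, 63.5 CPM per kb in WT M0, and Gbp4 lowest, at 0.250; bars that would reach 0 or below run off the axis.

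Most of the family was lower in WT M2 than in WT M0 macrophages. By edgeR's quasi-likelihood test with Benjamini-Hochberg adjustment over 14266 genes, a call needed adjusted p below 0.05, a change of more than 0.26 either way on the log2 scale, a protein-coding gene and an average normalized count over 10. By this rule 8 of 10 members fell, where 17.0% of all genes tested were called lower and 35.4% either way. Gbp4, Gbp6 and Gbp8 passed the filter on low counts only through WT M0, the group where they are higher, so their tests were not independent of the filter. Of the 7 members that also passed in WT M2 alone, 6 fell. For 7 of the 10 every M2 library lay below every M0 library, as it did for 28.7% of all genes. The median log2 fold change was -1.37 over the members and -0.00 over all genes.

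Irgm1 was at 456, 327 and 427 CPM in the WT M0 libraries 1 to 3 and at 151, 160 and 147 CPM in WT M2. Its M2 libraries were below all M0 libraries, a log2 fold change of -1.39 (SE 0.10, adjusted p = 1.15e-07). Igtp, whose protein also sits on the endoplasmic reticulum and lipid droplets, had 144, 94.4 and 142 CPM in WT M0 and 42.8, 54.6 and 52.1 CPM in WT M2, a log2 fold change of -1.34 (SE 0.14, adjusted p = 3.78e-06). Both IRG genes thus fell to ratios of 0.379 and 0.392 of their M0 means.

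The chromosome 3 genes did not move together. Gbp5, which promotes assembly of the NLRP3 inflammasome, was at 15.5, 13.9 and 11.4 CPM in WT M0 and 2.59, 3.16 and 4.21 CPM in WT M2, and fell by 2.02 on the log2 scale (SE 0.20, adjusted p = 1.65e-06). Gbp7, which takes part in assembly of the phagosomal NADPH oxidase, was at 55.8, 47.7 and 48.4 CPM in WT M0 and 25.5, 25.3 and 26.0 CPM in WT M2, and fell by 0.98 (SE 0.09, adjusted p = 6.40e-07). Neither gene had an M2 library as high as any M0 library.

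Gbp3 was at 21.6, 13.9 and 18.6 CPM in WT M0 and 10.96, 12.9 and 15.8 CPM in WT M2, with overlap. Its fall of 0.44 (SE 0.17) was called at an adjusted p = 0.0462, close to the limit. It was not called by the DESeq2 Wald test (adjusted p = 0.0551), by a fit of all 12 libraries (0.0712), or without the library 1 or 3 of WT M0 or 1 or 2 of WT M2 (0.116 to 0.184 over these 4 fits). Gbp2, which coats bacterial vacuoles, spread widely, at 40.1, 19.2 and 32.4 CPM in WT M0 and 23.3, 31.8 and 46.7 CPM in WT M2. The groups overlapped and Gbp2 was not called (log2 fold change 0.17, 95% confidence interval -0.36 to 0.69, adjusted p = 0.607).

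Gbp9, Gbp6 and Gbp4 on chromosome 5 had the largest falls of the family. Gbp6 and Gbp4 passed the filter on low counts only through WT M0, so their tests were not independent of that filter. Gbp9 was at 66.5, 41.2 and 60.7 CPM in WT M0 and 6.95, 12.3 and 8.29 CPM in WT M2, a log2 fold change of -2.58 (SE 0.20, adjusted p = 1.75e-07). Gbp6 was at 9.28, 4.75 and 9.03 CPM in WT M0 and 1.06, 0.632 and 1.49 CPM in WT M2, a log2 fold change of -2.85 (SE 0.35, adjusted p = 1.39e-05). The libraries of the M0 and M2 groups were apart for both genes.

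The WT M0 libraries had 25, 14 and 26 counts of Gbp4, against 2, 0 and 1 in WT M2. The ratio of the summed counts, 3 against 65, was 0.0473 with an exact 95% interval for counting error of 0.00951 to 0.144. The fall of Gbp4 was called (adjusted p = 6.25e-05), but the call was not independent of the filter, passed only through WT M0. Without the library 1 or 3 of WT M0 its adjusted p stayed at 0.000182 and 0.000677, but its average normalized count was no longer over 10. The Gbp8 counts of 18, 21 and 15 in WT M0 overlapped those of 11, 10 and 19 in WT M2, and the gene was not called (log2 fold change -0.35, interval -1.07 to 0.37, adjusted p = 0.416).

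**Figure D3:**
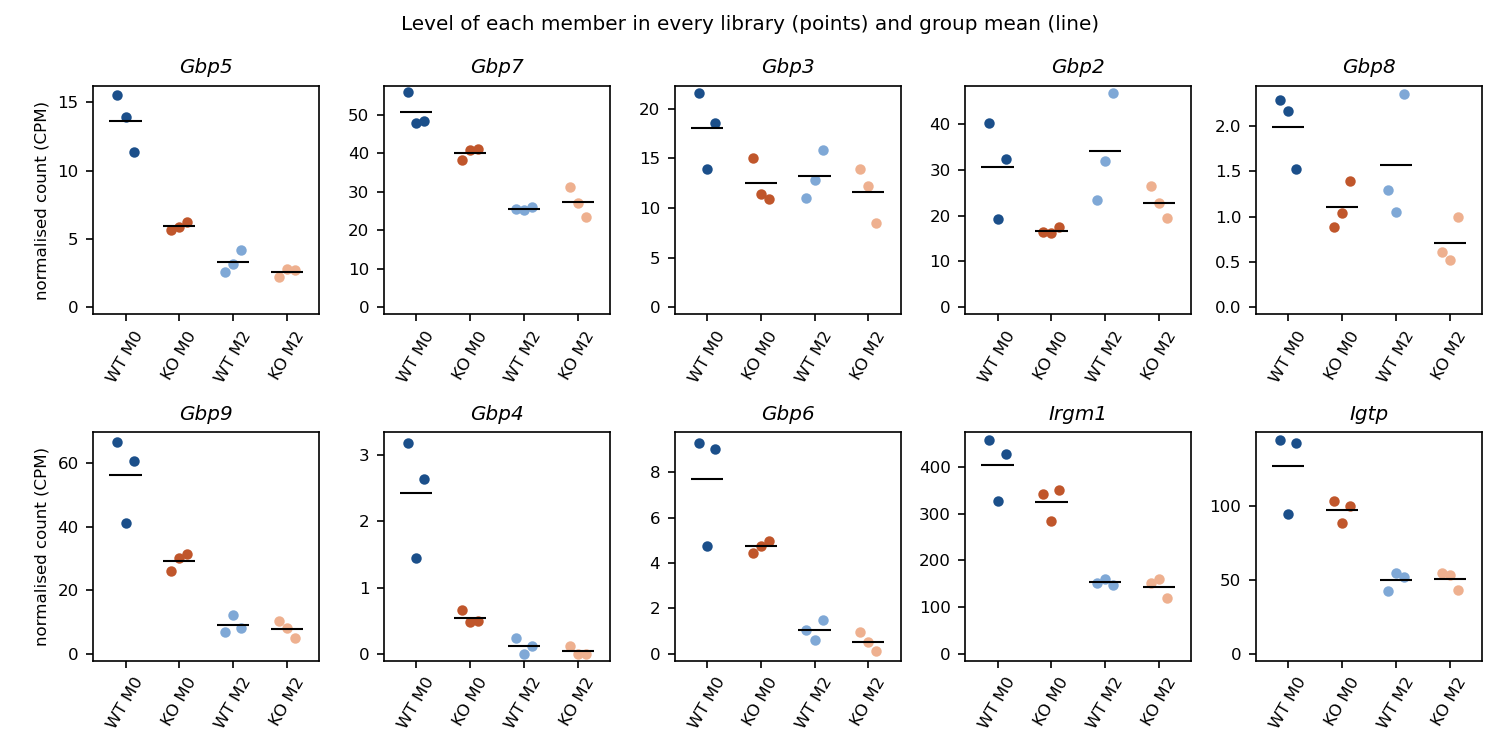
Normalised count (CPM) of each of the 10 members in all 12 libraries, as points by group (WT M0, KO M0, WT M2, KO M2, each with libraries 1 to 3 from left to right), with the group mean as a line. Igtp has its M2 libraries at 54.6 CPM or less and its M0 libraries at 88.1 CPM or more, and Gbp2 alone has a higher mean in M2 than in M0 in both genotypes.

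In miR-210 KO macrophages 8 members had enough counts to be tested over 14331 genes, and 6 fell while Gbp2 rose. Gbp6 passed the filter only through KO M0, and of the 7 members that also passed in KO M2 alone 5 fell and 1 rose. Of all genes tested 14.0% were called lower, 14.3% higher and 28.4% either way. All KO M2 libraries lay below all KO M0 libraries for the 6 members that fell, as they did for 22.7% of all genes, and above them for Gbp2, as for 23.6%. The median log2 fold change was -1.06 over the 8 members tested. Each M0 and M2 group enters both an IL-4 comparison and a genotype comparison, so those values are given side by side and are not independent.

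Irgm1 was at 341, 284 and 349 CPM in KO M0 and 151, 159 and 120 CPM in KO M2, and fell by 1.18 on the log2 scale (SE 0.11, adjusted p = 3.51e-06). Igtp was at 103, 88.1 and 100.1 CPM in KO M0 and 54.5, 53.3 and 43.3 CPM in KO M2, and fell by 0.94 (SE 0.10, adjusted p = 1.15e-05). The IRG transcripts were thus at ratios of 0.441 and 0.519 of their M0 means.

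Gbp9 was at 26.1, 30.3 and 31.5 CPM in KO M0 and 10.3, 8.26 and 5.13 CPM in KO M2, and fell by 1.89 (SE 0.19, adjusted p = 4.66e-06). Gbp6 fell by 3.09 (SE 0.39, adjusted p = 3.94e-05), from 40, 50 and 50 counts to 8, 5 and 1. Gbp5 fell by 1.19 (SE 0.21, adjusted p = 0.000750), from 5.68, 5.90 and 6.27 CPM to 2.21, 2.82 and 2.75 CPM. These 3 genes had the largest falls among the members tested in KO cells. The test of Gbp6 was not independent of the count filter, which it passed only through KO M0.

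Gbp7 was at 38.3, 40.9 and 41.0 CPM in KO M0 and 31.1, 27.2 and 23.4 CPM in KO M2, and fell by 0.56 (SE 0.11, adjusted p = 0.00135). Gbp3 overlapped between the groups and was not called (log2 fold change -0.10, interval -0.51 to 0.32, adjusted p = 0.734). Gbp2 was at 16.4, 16.2 and 17.5 CPM in KO M0 and 26.3, 22.7 and 19.4 CPM in KO M2. Its rise of 0.45 (SE 0.13, adjusted p = 0.0154) was not called without the KO M2 library 1 (adjusted p = 0.0972) or 2 (0.0525) or in a fit of all 12 libraries (0.167).

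Gbp4 and Gbp8 did not pass the count filter in the KO pair. Gbp4 had 6, 5 and 5 counts in KO M0 and 1, 0 and 0 in KO M2, a ratio of 0.0700 with a counting interval of 0.00167 to 0.450. Gbp8 had 33 counts in all in KO M0 and 18 in KO M2, a ratio of 0.611 with an interval of 0.324 to 1.12.

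**Figure D4:**
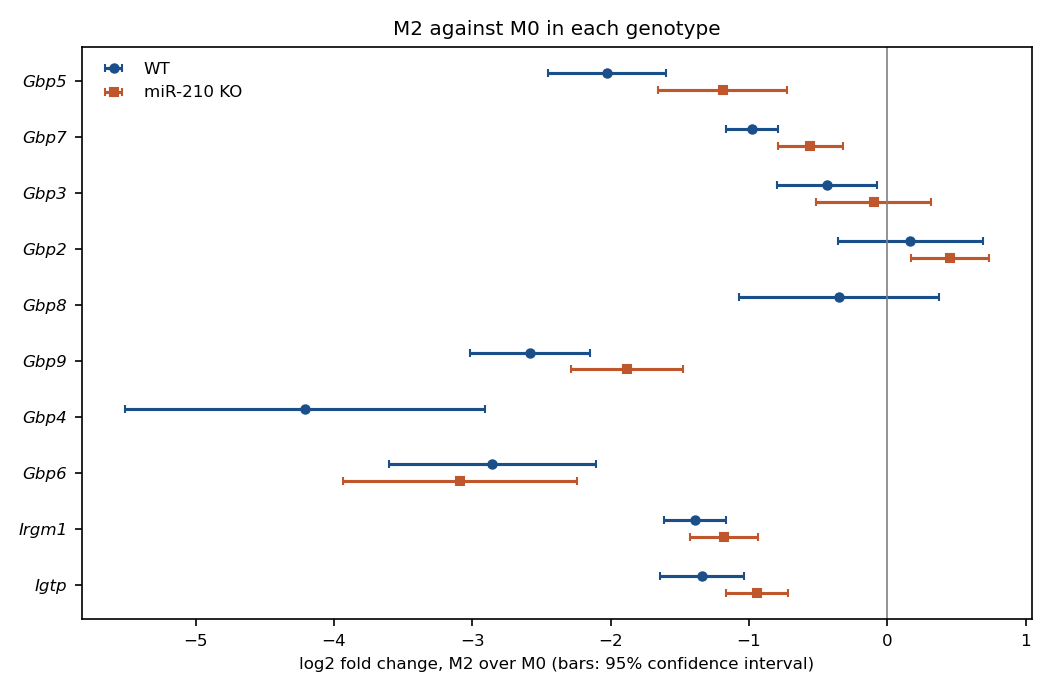
Log2 fold change of M2 over M0 for each member in WT (blue circles) and miR-210 KO (orange squares), with bars for the 95% confidence interval of each fit, not adjusted for the number of genes. Gbp9 lies at -2.58 in WT and -1.89 in KO and Irgm1 at -1.39 and -1.18, while Gbp2 lies right of 0 at 0.17 and 0.45; Gbp4 and Gbp8 were not tested in KO.

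In unpolarized macrophages all 10 members had a lower mean in miR-210 KO than in WT, with log2 fold changes from -0.31 to -2.11 and a median of -0.75, beside 0.00 over the 14089 genes tested. This is the comparison in which lower interferon genes were known when the members were chosen. The rule for a call (the same limits on p and fold, with none on gene type or count) was met by 2 members, Gbp5 and Gbp9, where it was met by 0.461% of all genes and by 0.241% with a lower level. Every KO library lay below every WT library for 6 members, as for 7.28% of all genes. Because of how the members were chosen, nothing is read from these counts. All 10 members passed the filter on low counts here.

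Gbp5 had a log2 fold change of -1.19 (SE 0.17) and Gbp9 of -0.93 (SE 0.16). Gbp5 was at 15.5, 13.9 and 11.4 CPM in WT and 5.68, 5.90 and 6.27 CPM in KO, and Gbp9 was at 66.5, 41.2 and 60.7 CPM in WT and 26.1, 30.3 and 31.5 CPM in KO. For both genes the WT libraries spread more than the KO libraries and lay above them. Gbp4 had the lowest fold change, -2.11 (SE 0.40), on 65 counts in WT M0 against 16 in KO M0, a ratio of 0.228 with a counting interval of 0.123 to 0.399.

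Gbp2 lay at -0.86 (SE 0.21), with 16.4, 16.2 and 17.5 CPM in KO M0 against 40.1, 19.2 and 32.4 CPM in WT M0. Gbp8 at -0.82 (SE 0.33) and Gbp7 at -0.33 (SE 0.09) also had no KO library as high as a WT library. Gbp6 at -0.69 (SE 0.25), Gbp3 at -0.53 (SE 0.18), Igtp at -0.38 (SE 0.14) and Irgm1 at -0.31 (SE 0.13) overlapped between genotypes.

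Library 1 of WT M0 had the highest value of its group for 10 of 10 members and library 2 the lowest for 8, and the members summed to 815, 565 and 754 CPM in libraries 1 to 3, beside 552, 484 and 564 CPM in KO M0. Without WT M0 library 1 the median log2 fold change of the members was -0.58, and without library 2 it was -0.84.

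**Figure D5:**
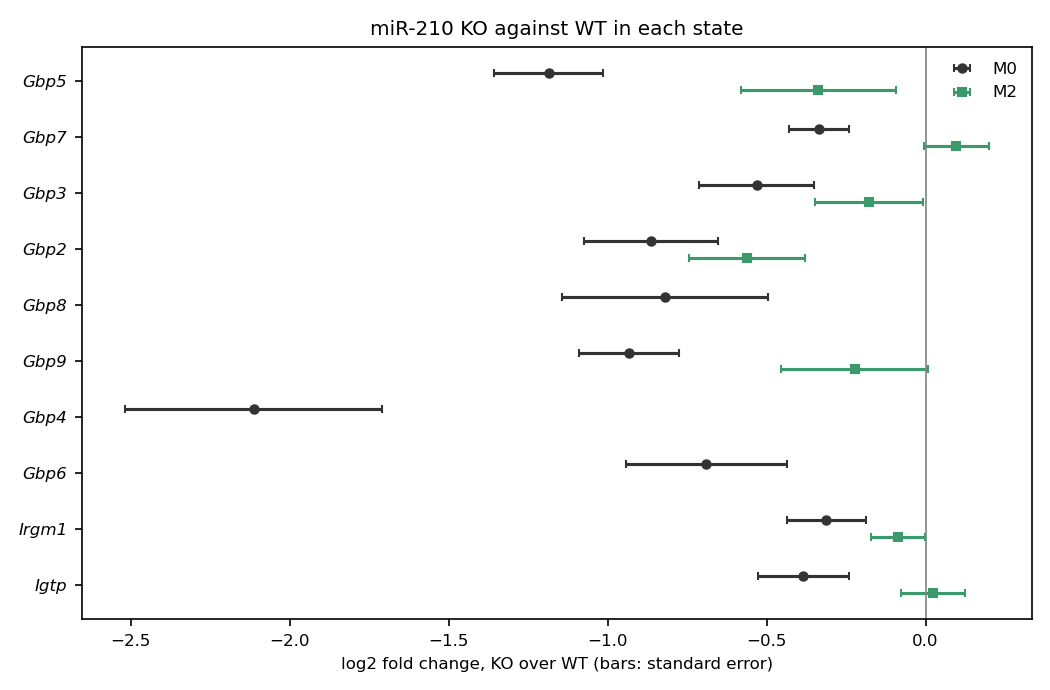
Log2 fold change of miR-210 KO over WT for each member in M0 (black circles) and M2 (green squares), with bars for the standard error. In M0 the members lie between -0.31 and -2.11, and in M2 the 7 members tested lie between -0.56 and 0.10.

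After IL-4 the mean of 8 of the 10 members was lower in KO, and none of the differences tested passed. This pair of groups shares no library with the M0 pair. Of the 7 members with enough counts 0 were called by edgeR's quasi-likelihood test over 13980 genes, where 0.980% of all genes were called, 0.408% higher and 0.572% lower. For 0 of the 7 did every KO library lie below every WT library, as it did for 8.53% of all genes. At an unadjusted p under 0.05 it was 1 member, Gbp2, and the DESeq2 Wald test called 0.

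Gbp2 was at 23.3, 31.8 and 46.7 CPM in WT M2 and 26.3, 22.7 and 19.4 CPM in KO M2. The groups overlapped through WT library 1, and the log2 fold change was -0.56 (interval -0.95 to -0.17, adjusted p = 0.216). It was called without WT M2 library 1 (-0.76, adjusted p = 0.0355), and adjusted p lay between 0.226 and 0.694 without each of the other libraries. A fit of all libraries of this pair without the count filter also called Gbp2.

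Irgm1 was at 151, 160 and 147 CPM in WT M2 and 151, 159 and 120 CPM in KO M2, a log2 fold change of -0.09 (interval -0.27 to 0.09, adjusted p = 0.798). Igtp was at 0.02 (interval -0.19 to 0.24, adjusted p = 0.968) and Gbp7 at 0.10 (interval -0.12 to 0.31, adjusted p = 0.818). For these 3 genes the intervals reached no farther than 0.31 from 0 on the log2 scale.

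Gbp3 at -0.18 (interval -0.54 to 0.18), Gbp9 at -0.22 (interval -0.72 to 0.27) and Gbp5 at -0.34 (interval -0.86 to 0.18) were measured less closely, and their adjusted p lay between 0.698 and 0.816. Gbp4, Gbp6 and Gbp8 did not pass the count filter in M2. Gbp8 had 11, 10 and 19 counts in WT M2 and 5, 5 and 8 in KO M2, a ratio of 0.456 with a counting interval of 0.246 to 0.814. Gbp6 had 27 counts against 14, a ratio of 0.525 (0.255 to 1.04), and Gbp4 had 3 against 1, a ratio of 0.338 (0.00643 to 4.21). These intervals cover counting error only.

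Summed by chromosome, the chromosome 3 genes were at 113 ± 19.2 CPM in WT M0, 75.2 ± 0.700 in KO M0, 76.1 ± 15.4 in WT M2 and 64.2 ± 9.79 in KO M2 (SD, n = 3). The chromosome 5 genes were at 68.2 ± 16.6, 35.7 ± 3.23, 11.9 ± 2.25 and 9.19 ± 2.87 CPM in the same order. Irgm1 and Igtp together were at 530 ± 96.0, 422 ± 42.9, 203 ± 10.9 and 194 ± 26.5 CPM. The chromosome 5 sum had the lowest ratio of M2 to M0 in both genotypes and the chromosome 3 sum, with Gbp2 in it, the highest. Abundant genes weigh most in these sums, and Gbp9 alone was at 56.1 CPM in WT M0. Single genes differed from their sums, with WT ratios of M2 to M0 of 0.786 for Gbp8 and 0.244 for Gbp5.

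The interaction of genotype and IL-4 compares the change with IL-4 between genotypes and holds the M0 pair, so it is given as values. It was positive for 8 of 10 members, a less negative fold change in KO for 7 and a more positive one for Gbp2, with a median of 0.37 beside -0.00 over all genes. Gbp5 had the largest value at 0.84 (SE 0.29), Gbp4 was at 0.82 on few counts (SE 2.65), and then came Gbp9 at 0.71 (SE 0.32), Gbp7 at 0.43 (SE 0.14) and Igtp at 0.40 (SE 0.20). Gbp8 at -0.30 (SE 0.54) and Gbp6 at -0.23 (SE 0.62) were negative. By edgeR 0 members and 0 of 14825 genes were called, which is 0% of all genes, with 1327 genes at an unadjusted p under 0.05, and the DESeq2 Wald test called 72 genes and 0 members.

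A further list of 18 genes held GBP and IRG genes and the very large inducible GTPase genes Gvin1 and Gvin2. Of the 18 genes 16 were in the tables and 12 had enough counts. All 12 had a lower mean in WT M2 than in WT M0. In WT 10 were called lower (median -1.43 over the 12) and in KO 8 (median -1.03). Among all genes tested 17.0% were called lower in WT and 14.0% in KO. Iigp1 (Irga6), an effector IRG protein that loads onto vacuoles, was at 146, 64.2 and 119 CPM in WT M0 and 5.42, 4.32 and 3.71 CPM in WT M2, a log2 fold change of -4.59 (SE 0.30, adjusted p = 3.17e-08). Tgtp2, another effector, fell by 3.62 (SE 0.22, adjusted p = 1.57e-08) in WT and in KO fell by 2.91 (SE 0.17, adjusted p = 4.02e-08). Irgm2, the third gene of the Irgm group, fell by 1.42 (SE 0.09) in WT and by 1.02 (SE 0.10) in KO.

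Ifi47, 9930111J21Rik1, 9930111J21Rik2, Gm5431 and F830016B08Rik were also called lower in both genotypes, with log2 fold changes from -1.38 to -1.71 in WT and from -0.77 to -1.38 in KO. Gvin1 and Gvin2, whose transcripts share 98.3% of their 50-base stretches, fell by 0.55 and 0.56 in WT and were not called in KO (-0.11 and -0.12). They were the only genes of this list called in WT alone. Gm12250 had -1.40 in WT and -1.09 in KO but is not annotated as protein-coding, which the rule required. Irgq was at -0.16 (adjusted p = 0.0758) in WT and 0.00 in KO.

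In the M0 genotype pair all 12 of these genes had negative values (median -0.43), given as a description as for the members. Iigp1 had the value -1.37 (SE 0.24), with 40.6, 35.8 and 50.9 CPM in KO M0. In M2 0 of the 12 were called between genotypes by edgeR, with 3 at an unadjusted p under 0.05 and 0 by DESeq2, and the median was -0.02. Gbp10 had 0 CPM in every library, and Gbp2b and Gbp11 stayed at or below 0.501 CPM. Of the 50-base stretches of Gbp10 71.2% also occur in another gene, against 90.6% for Tgtp2 and 79.4% for 9930111J21Rik1. Counts of these 3 genes, the 0 of Gbp10 among them, depend on how reads that match several genes were handled.

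The interferons themselves were at the floor of detection. Ifng had 0 counts in all 12 libraries, and so had Ifna1, Ifna2, Ifna4, Ifna5 and Ifna6. Ifnb1 had 6, 1 and 4 counts in WT M0, 1, 1 and 1 in KO M0, 0, 1 and 1 in WT M2 and 0, 0 and 0 in KO M2. The highest Ifnb1 count and the highest value of all 10 members among the WT M0 libraries were in the same library, number 1, and the part of Ifnb1 in the result was not tested.

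Genes of interferon signalling moved both ways with IL-4. Of 18 tested genes of the interferon gamma pathway 7 rose and 8 fell in WT, and 8 rose and 7 fell in KO. Among all genes tested 35.4% were called either way in WT and 28.4% in KO. The receptor chain gene Ifngr1 rose by 0.58 (SE 0.06, adjusted p = 6.58e-06) in WT and by 0.69 (SE 0.07, adjusted p = 1.13e-05) in KO. Irf8, a transcription factor of myeloid cells, fell by 0.78 (SE 0.07) in WT and by 0.72 (SE 0.07) in KO. Stat2, part of the complex that binds ISREs, fell by 1.16 (SE 0.08) in WT and by 0.99 (SE 0.10) in KO.

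Socs1, an inhibitor of cytokine signalling, was singled out after its values were seen. Socs1 rose by 4.54 (SE 0.12, adjusted p = 8.10e-12) in WT and by 4.15 (SE 0.12, adjusted p = 1.06e-10) in KO. Irf1 was called higher in KO (0.30, SE 0.10, adjusted p = 0.0317) and not in WT (-0.03, adjusted p = 0.845), and the interaction of genotype and IL-4 was 0.34 (SE 0.17, adjusted p = 0.578) for this gene.

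Of 5 tested genes of the type I interferon list Ifnar1 rose in both genotypes, by 0.37 in WT and 0.31 in KO, and Irf7, which drives type I interferon transcription, fell by 3.08 (SE 0.13) in WT and in KO fell by 3.07 (SE 0.18). Of 16 genes for bringing GBPs and IRGs to vacuoles 3 rose and 3 fell in WT and 3 rose and 2 fell in KO, beside the 35.4% of all genes called in WT and 28.4% in KO, among them the ubiquitin ligase gene Trim21 (-1.12, SE 0.10, in WT and -0.93, SE 0.10, in KO) and the autophagy gene Atg7 (0.42, SE 0.07, and 0.39, SE 0.11). Of 6 genes for prenylation, the lipid modification that anchors some GBPs, Fnta rose and Pggt1b fell in WT and Icmt fell in KO, beside those shares of all genes.

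A list of 7 genes held genes of the caspase-11 and AIM2 pathways, which act after GBPs open a vacuole, and the sensor genes Nlrp3 and Zbp1. Among the 7 genes 1 rose and 3 fell in WT and 1 rose and 2 fell in KO. The shares over all genes were the same 35.4% and 28.4%. Casp1 rose by 0.28 in WT and 0.37 in KO, Nlrp3 fell by 0.43 and 1.12, and Zbp1, a nucleic acid sensor, fell by 2.30 (SE 0.13) and 1.91 (SE 0.17). Between genotypes in M2, edgeR and the DESeq2 Wald test each called 0 genes of these 5 lists. At an unadjusted p under 0.05 it was 3 of the interferon gamma pathway, 1 of the type I list, 1 of the vacuole list, 0 for prenylation and 1 of the caspase-11 list.

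The genes whose profiles over the 12 libraries were most like the mean profile of the members were Usp18, Oas1g, Slamf9, Stat2 and Parp14. Likeness was the root mean square difference of centred log2(CPM + 0.5) over the 12 libraries, from 0.14 for Usp18 to 0.17 for Parp14, among 11373 protein-coding genes. Usp18, an inhibitor of type I interferon signalling, was at 48.3 ± 4.61 CPM in WT M0, 34.1 ± 2.74 in KO M0, 18.8 ± 2.28 in WT M2 and 14.7 ± 2.85 in KO M2 (SD, n = 3). Among the members Igtp (0.19) and Irgm1 (0.21) lay nearest to their mean profile and Gbp2 (0.73) and Gbp6 (0.69) farthest.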

How the data were processed

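Raw counts per Ensembl gene were deposited by the authors in 4 tables, a pair of groups in each. They trimmed reads with Trimmomatic, aligned them to GRCm39 with STAR, removed duplicates with Picard and counted strand-specifically with featureCounts. Their 4 tables of normalized values were not used. Counts of the 12 libraries were joined by gene. Genes were filtered by filterByExpr, scaled by TMM and tested pair by pair with edgeR 4.0.16 (quasi-likelihood, R 4.3.3), with Benjamini-Hochberg adjustment over all genes tested. A call needed adjusted p below 0.05 and a change of more than 0.26 either way on the log2 scale. For M2 against M0 it also needed a protein-coding gene and an average normalized count over 10, and for the interaction no fold limit was set. SE is the fold change divided by the root of F. Alternatives were DESeq2 1.42.0, RLE factors, no count filter, a fold limit of 1, a replicate block, all 12 libraries in a single fit and leaving out each library. The scripts were tested on simulated data. Ratios of sparse counts carry exact 95% intervals for counting error only. Members and lists were chosen with earlier results of these data known. Named genes were all members and every tested gene of the further list of GBP, IRG and Gvin genes. From each other list, some of the up to 4 called genes with the largest average count in a comparison were named. Socs1, singled out after its values were seen, was outside this rule. Values of some list genes are not reported here.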

Additional observations from a re-analysis of the deposited data

How the results depend on the processing

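For M2 against M0 in WT 8 members were called, with 7 by DESeq2 and in the 12-library fit, 6 at a fold limit of 1 and 6 to 8 when each library was left out in turn. Over all genes 5055 of 14266 were called, with 4603 by DESeq2 and 4951 of 14825 in the 12-library fit. A fold limit of 1 left 1446, and leaving out a library gave 4644 to 5022. In KO 7 members were called, with 6 in the 12-library fit, 4 at a fold limit of 1 and 6 to 7 when a library was left out. Over all genes 4065 of 14331 were called there, with 4276 of 14825 in the 12-library fit. A fold limit of 1 left 1292, and leaving out a library gave 3387 to 4117. In M0, 2 members were called between genotypes, beside 65 of 14089 genes tested. It was 4 by DESeq2 (219 of all genes) and 6 without the count filter (532 of 26255 genes). A fold limit of 1 left 1 member and 27 of all genes. Leaving out a library gave 0 to 6 members and 20 to 302 of all genes. Because of how the members were chosen, nothing is read from these M0 counts. In M2 the count of 0 became 1 without the count filter (Gbp2) and lay between 0 and 1 when a library was left out. The interaction count of 0 became 1 without the filter (Gbp9) and stayed at 0 with each library left out. With the longest transcript as length, the Irgm1 share was 58.4% in WT M0, 62.4% in KO M0, 51.8% in WT M2 and 53.5% in KO M2. The cause of these moves was not tested.

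The replicate block gave 5 members in M0, beside 284 of all genes, and changed no other member count. Deviations of same-numbered M0 libraries correlated at 0.13, 0.40 and 0.03 between genotypes, and those of M2 libraries at -0.10, 0.11 and 0.09. Between M0 and M2 they correlated at -0.05, -0.11 and -0.06 in WT and at 0.08, -0.33 and -0.00 in KO. The numbers are not tied to named samples, so they were not taken as pairs. The cause of the higher M0 counts with the block was not tested.

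Over all genes, the M0 genotype count was 65, with 219 by DESeq2, 532 unfiltered, 27 at a fold limit of 1, 284 with the block, 248 in the 12-library fit and 20 to 302 with a library left out. The M2 count was 137, with 360 unfiltered, 40 at a fold limit of 1, 289 with the block, 60 in the 12-library fit and 53 to 215 with a library left out. For M2 against M0 a fold limit of 1 left 1446 of 5055 genes in WT and 1292 of 4065 in KO. The interaction count of 0 became 72 by DESeq2, 341 unfiltered and 0 to 77 with a library left out.

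Uncalled fold changes crossed 0 when a library was left out. Between genotypes in M2 the range was -0.0040 to 0.19 for Gbp7 (crossing without KO M2 replicate 1), -0.44 to 0.059 for Gbp9 (WT M2 replicate 2), -0.17 to 0.023 for Irgm1 (KO M2 replicate 3) and -0.072 to 0.12 for Igtp (WT M2 replicate 1, KO M2 replicate 1 or 2). For M2 against M0 it was -0.12 to 0.39 for Gbp2 in WT (WT M0 replicate 2 or WT M2 replicate 3) and -0.25 to 0.062 for Gbp3 in KO (KO M0 replicate 1 or KO M2 replicate 3). For the interaction it was -1.13 to 1.68 for Gbp4 (KO M2 replicate 1), -0.88 to 0.19 for Gbp6 (WT M0 replicate 2, WT M2 replicate 3 or KO M2 replicate 3) and -0.62 to 0.084 for Gbp8 (WT M2 replicate 3). Depth limits Gbp4, Gbp6 and Gbp8 in M2, where no library had over 19 counts of any of them.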
